A study of Rattus norvegicus with 11 samples.

Results

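The genes described here encode the 3 TGF-beta ligands (Tgfb1, Tgfb2 and Tgfb3), the 4 latent TGF-beta binding proteins (Ltbp1, Ltbp2, Ltbp3 and Ltbp4) and the 3 receptors (Tgfbr1, Tgfbr2 and Tgfbr3). They were taken by symbol, by a rule that sets no threshold on their values but was written with earlier results of these data known, and are 10 of the 18507 genes in the table. RNA-seq was performed on whole bladder tissue of female Sprague-Dawley rats. In the rats with partial bladder outlet obstruction (PBOO), a suture was tied around the bladder neck and urethra. The control rats, called normal here as in the sample records, had the incision without the tie according to the study's methods. Bladders were taken at week 4 (3 PBOO and 3 normal samples) and at week 5 (2 PBOO and 3 normal samples). The study's methods give 1 common age, in the adult range, for its rats. The labels give no age by sample, except that the 3 normal week 5 samples, and no others, are named adult. Whether they differed in age from the PBOO samples of week 5 is not given, and such a difference and the obstruction cannot be told apart. The labels name no genotype or drug. Nothing in the records says that samples of a group shared an animal. The p-values set group differences against the spread between these samples, which limma draws toward that of genes of similar level.

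TGF-beta is secreted as a latent complex, in which the mature ligand is held by its own propeptide. Latent TGF-beta binding proteins tie this complex to fibrillin and fibronectin in the extracellular matrix, and integrins, thrombospondin and proteases release the ligand. The free ligand binds the type II receptor, which phosphorylates the type I receptor, and the signal passes to the nucleus through Smad proteins. In the bladder wall the pathway is known for its part in collagen deposition and in the state of smooth muscle cells.

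Values are FPKM, fragments scaled to exon length and to all mapped fragments, a level per transcript length that allows genes to be set beside each other within a sample. Fold changes are differences between group means of log2(FPKM + 0.1), which understates the change of genes near 0. A gene was said to rise or fall only with a Benjamini-Hochberg adjusted p under 0.05 in limma over all genes tested. The table has no read counts, so the depth of each sample is unknown and no counting error is given. Column sums ranged from 424961 to 564343, and replicates of a group correlated at 0.941 to 0.986 (Pearson, across genes, which are not independent replicates). In all, 4871 genes were listed at 0 in every week 4 sample and 403 in every week 5 sample, so levels were not compared between the weeks. Over all genes tested, the log2 fold change of PBOO over normal bladders had a median of -0.25 at week 4 and 0.12 at week 5, and the changes below are to be read relative to it.

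At week 4, Ltbp1 and Ltbp3 rose in PBOO bladders and no member fell. At week 5, 8 of the 10 members passed the test: Tgfb1 and Tgfbr1 rose, while Tgfb2, Tgfb3, Tgfbr2, Tgfbr3, Ltbp1 and Ltbp4 fell. The largest changes at week 5 were an 8.87-fold lower Tgfb3, a fold that moved by over 1.5 times without either PBOO sample, and a 3.65-fold lower Tgfbr3, against a 3.27-fold higher Tgfb1. Among all genes tested, 0.512% passed at week 4 (58 of 11320, with 0.336% higher in PBOO) and 29.9% at week 5 (4095 of 13685, with 15.5% higher and 14.5% lower). The week 5 split turned with the scaling, from 2117 higher and 1978 lower to 1634 and 2184 with median-ratio scaling and 1758 and 2051 as TPM. At least a 2-fold change as well was seen for none of the members at week 4 and for 6 at week 5, against 0.371% and 19.3% of all genes. All 10 members passed the filter on low values in both weeks, Ltbp2 only through its PBOO samples. Its place in the week 4 counts that follow is therefore no independent support for a rise. The groups of 6 members did not overlap at week 4, each with PBOO higher (Tgfb2, Tgfb3 and Ltbp1 to Ltbp4), against 6.63% of all genes with that direction. The same 6 had an unadjusted p under 0.05, against 5.76% of all genes higher and 26.2% lower (32% in all). At week 5, the groups of 2 members did not overlap with PBOO higher and those of 6 with PBOO lower, against 35.3% and 25% of all genes. These 8 also had an unadjusted p under 0.05 (43.4% of all genes).

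**Figure D1:**
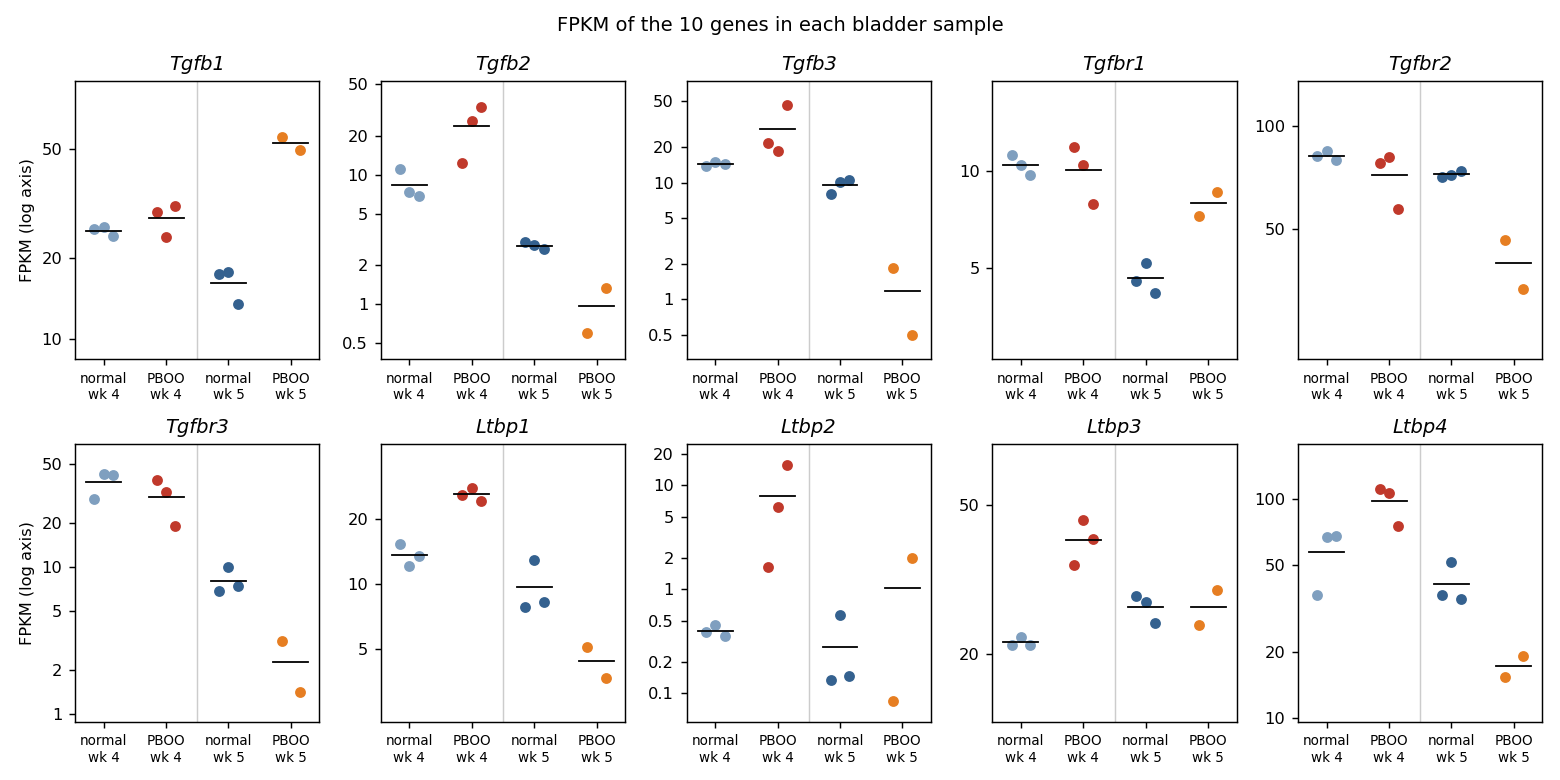
FPKM of each of the 10 genes (y axis, log scale) in every sample of the 4 groups (x axis), with points for samples and a bar for each group mean. Tgfb1 reached 49.8 and 55.7 FPKM in the PBOO samples of week 5, above its 3 normal samples, whereas Tgfb3 was at 0.495 and 1.86 there, below them.

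Tgfb1, the ligand most often tied to fibrosis, was at 25.4, 25.9 and 23.9 FPKM in normal week 4 replicates 1 to 3 and at 29.4, 23.7 and 31.0 in the PBOO samples. These groups overlapped, and the log2 fold change of 0.15 (SE 0.13) did not pass (adjusted p = 0.423, limma). At week 5 it was at 17.3, 17.7 and 13.5 FPKM in the normal samples and at 55.7 and 49.8 in the PBOO samples. Both PBOO samples were far above every normal sample, and Tgfb1 rose by 1.71 on the log2 scale (SE 0.16, adjusted p = 0.00162).

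Tgfb2, a ligand with low affinity for the type II receptor on its own, was at 11.1, 7.32 and 6.83 FPKM in the normal week 4 samples and at 12.3, 25.8 and 33.1 in the PBOO samples. Every PBOO sample was above every normal one, with PBOO replicate 1 close to the normal range. The log2 fold change of 1.40 (SE 0.38) missed the threshold (adjusted p = 0.0788). With single samples left out it ranged from 1.11 to 1.82, the latter without PBOO replicate 1 (adjusted p = 0.0143). Leaving out that sample also raised the number of all genes passing at week 4 from 58 to 2126. Tgfb2 passed at week 4 in 2 of 13 alternative fits, with adjusted p up to 0.227. At week 5 the normal samples were at 3.01, 2.87 and 2.66 FPKM and the PBOO samples at 0.607 and 1.34, with no overlap. Tgfb2 fell by 1.54 on the log2 scale (SE 0.35, adjusted p = 0.0244). This call was lost when any 1 of normal replicates 1, 2 or 3 was left out (adjusted p = 0.101, 0.0785 and 0.0800).

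Tgfb3, which signals through the same receptors as Tgfb1, was at 13.9, 14.9 and 14.5 FPKM in the normal week 4 samples and at 21.7, 18.6 and 46.2 in the PBOO samples. The PBOO samples were all higher, and replicate 3 stood well above the other two. The log2 fold change was 0.87 (SE 0.32, adjusted p = 0.122), and 0.47 without PBOO replicate 3. The week 5 levels were 8.01, 10.1 and 10.6 FPKM in normal and 1.86 and 0.495 in PBOO bladders. Tgfb3 fell by 3.15 on the log2 scale (SE 0.50, adjusted p = 0.00826), with both PBOO samples below every normal one. The size rested on both of them: the log2 fold change was -4.01 without PBOO replicate 1 and -2.29 without PBOO replicate 2, and it passed in both cases (adjusted p = 0.00194 and 0.00378). Each such fit of week 5 has a lone PBOO sample, which is assumed to vary like the normal ones.

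The makeup of the ligand transcripts also differed between the groups. At week 5, Tgfb1 made up 56.5% ± 5.38 (SD, n = 3) of the summed ligand FPKM in normal bladders and 96.1% ± 0.482 (SD, n = 2) in PBOO bladders. The share of Tgfb3 was 33.5% ± 5.64 in the normal samples and 2.08% ± 1.58 in the PBOO samples. At week 4 the share of Tgfb1 was 52.4% ± 1.78 in normal and 36.4% ± 9.26 in PBOO bladders (SD, n = 3 each), so the PBOO samples held the smaller share there and the larger one at week 5. The summed ligand level was 48.0 ± 2.59 FPKM in normal and 80.6 ± 25.8 in PBOO bladders at week 4, and 28.6 ± 1.91 and 54.9 ± 4.60 at week 5. These shares and sums were not tested further.

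**Figure D2:**
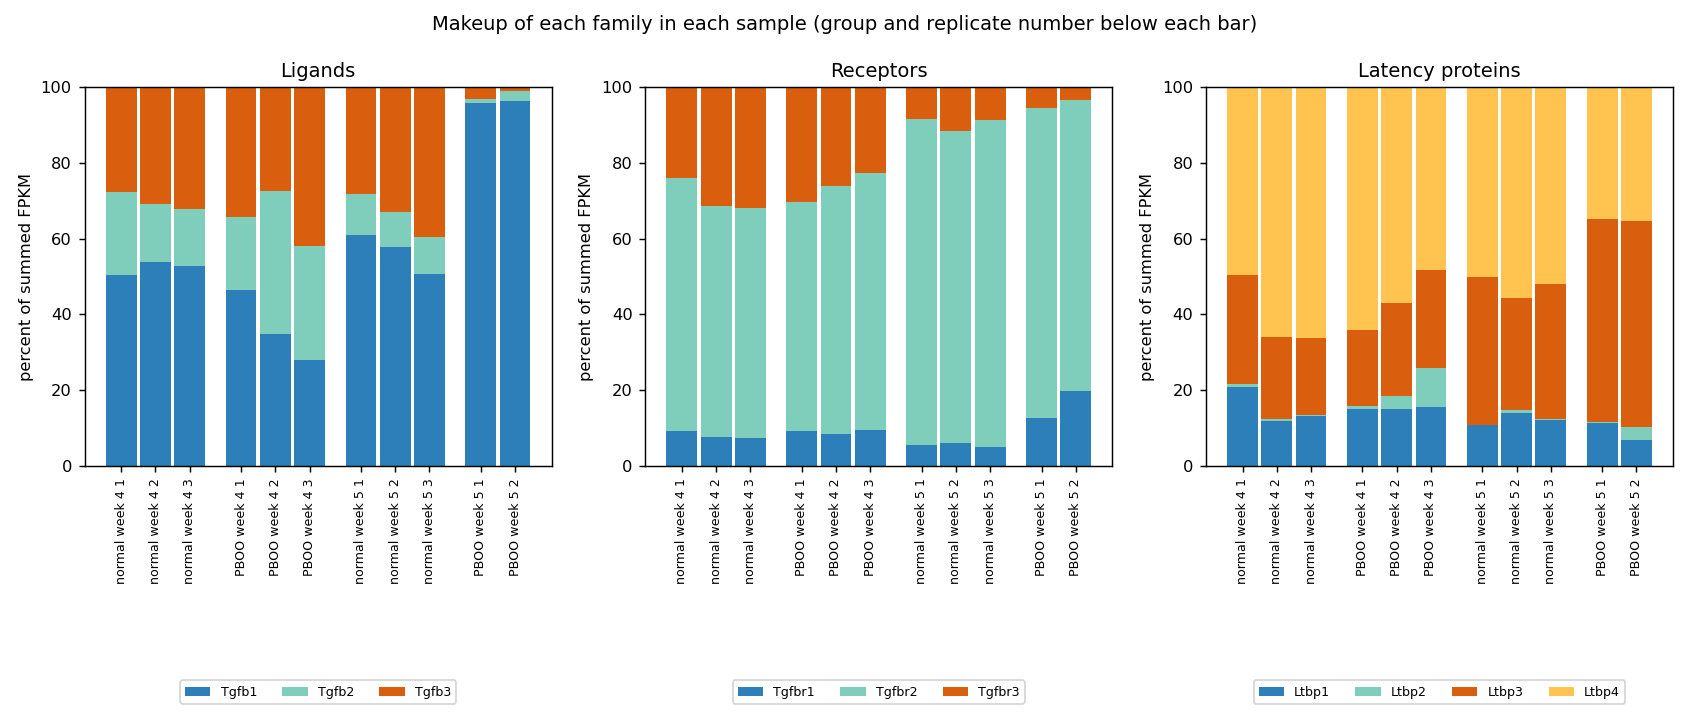
Percent of the summed FPKM (y axis) that each gene took within the ligands, the receptors and the latency proteins, as 1 stacked bar per sample (x axis). Tgfb1 fills 95.8% and 96.4% of the ligand bars in the PBOO week 5 samples and 50.6% to 61.1% in the normal week 5 samples.

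The promoters of the 3 ligand genes are shown because the ligands went different ways at week 5. The sequences are the 250 bases before the annotated start, 5′ to 3′ on the strand of the gene, from RefSeq (GRCr8), at chr1:90324062-90324311 (plus strand) for Tgfb1, chr13:100792686-100792935 (minus strand) for Tgfb2 and chr6:111456947-111457196 (minus strand) for Tgfb3. Capitals mark matches, on either strand, to the letters GGGCGG for the GC box, CAGAC for the short Smad motif, GTCTAGAC for the palindromic Smad motif, TGANTCA for the AP-1 motif, TATAAA for the TATA box and CACGTG for the E-box, or to the CArG box.
Tgfb1: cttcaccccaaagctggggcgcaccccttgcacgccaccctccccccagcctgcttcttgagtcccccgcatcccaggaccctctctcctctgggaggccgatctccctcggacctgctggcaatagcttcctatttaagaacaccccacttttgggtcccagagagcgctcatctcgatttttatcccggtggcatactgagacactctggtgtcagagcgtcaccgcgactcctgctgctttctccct
Tgfb2: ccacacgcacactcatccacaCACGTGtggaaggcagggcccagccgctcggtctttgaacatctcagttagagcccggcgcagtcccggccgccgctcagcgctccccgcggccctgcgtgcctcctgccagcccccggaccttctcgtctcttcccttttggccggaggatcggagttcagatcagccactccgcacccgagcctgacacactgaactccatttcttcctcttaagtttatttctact
Tgfb3: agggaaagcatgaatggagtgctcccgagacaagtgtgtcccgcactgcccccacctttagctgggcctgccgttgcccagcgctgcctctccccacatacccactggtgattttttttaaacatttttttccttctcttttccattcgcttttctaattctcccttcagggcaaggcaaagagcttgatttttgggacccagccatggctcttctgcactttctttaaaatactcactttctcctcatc
Only the E-box of Tgfb2 was found among the ligands, and CACGTG occurs in 5.79% of all 27457 promoters of this length. Over the 10 members, GGGCGG was found in 6 promoters and CAGAC in 2 (32.4% and 42.8% of all promoters). No member's window held the palindromic Smad motif, the AP-1 motif, the TATA box or a CArG box (0.186%, 6.36%, 13.1% and 1.501% of all promoters). The G and C content was 60% for Tgfb1, 61.6% for Tgfb2 and 48.8% for Tgfb3, with a median of 52% over all promoters. A match is a description of letters and not a site of binding.

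Ltbp1, which binds the latent complex and anchors it to matrix fibrils, was at 15.3, 12.2 and 13.4 FPKM in the normal week 4 samples and at 26.0, 28.1 and 24.4 in the PBOO samples. The PBOO samples were close together and all above the normal ones. Ltbp1 rose 1.91-fold (log2 0.94, SE 0.13, adjusted p = 0.0483). Its week 5 levels were 7.81, 12.98 and 8.27 FPKM in normal and 5.10 and 3.66 in PBOO bladders. Here the PBOO samples were the lower ones, and Ltbp1 fell by 1.11 on the log2 scale (SE 0.28, adjusted p = 0.0342).

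Ltbp3, which likewise carries latent TGF-beta, was at 21.1, 22.2 and 21.0 FPKM in the normal week 4 samples and at 34.5, 45.5 and 40.4 in the PBOO samples. The groups were well apart, and Ltbp3 rose 1.86-fold (log2 0.89, SE 0.13, adjusted p = 0.0483). At week 5 the normal samples were at 28.5, 27.4 and 24.1 FPKM and the PBOO samples at 23.9 and 29.5. These ranges overlapped, with a log2 fold change of -0.0033 (SE 0.15, adjusted p = 0.988).

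The week 4 calls of Ltbp1 and Ltbp3 lay close to the threshold. Leaving out any 1 sample other than PBOO replicate 1 raised the adjusted p to between 0.0691 (without normal replicate 1) and 0.216 (without normal replicate 3) for Ltbp1, and for Ltbp3 to between 0.0837 and 0.216 without the same samples. The values without normal replicate 2, PBOO replicate 2 and PBOO replicate 3 were 0.168, 0.183 and 0.0859 for Ltbp1 and 0.168, 0.183 and 0.0934 for Ltbp3. The week 5 call of Ltbp1 was lost without normal replicate 1, 2 or 3 (adjusted p = 0.0696, 0.0648 and 0.0787) and without PBOO replicate 2 (0.115), and also in limma without a trend on mean expression (0.0504).

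Ltbp4, the latency protein with a known part in elastic fibre assembly, was at 36.3, 67.3 and 67.9 FPKM in the normal week 4 samples and at 111, 106 and 75.2 in the PBOO samples. All PBOO samples were higher, and normal replicate 1 lay far below the other normal samples. The log2 fold change was 0.81 (SE 0.27, adjusted p = 0.111), and 0.51 without normal replicate 1. Its week 5 levels were 36.5, 51.3 and 35.1 FPKM in normal and 15.4 and 19.2 in PBOO bladders. Ltbp4 fell 2.34-fold (log2 -1.23, SE 0.21, adjusted p = 0.0104).

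Ltbp2, a matrix protein of this family that does not bind latent TGF-beta, was the lowest member in normal bladders, at 0.391, 0.453 and 0.352 FPKM at week 4. The PBOO samples were at 1.64, 6.22 and 15.7 FPKM, all above the normal samples and with a wide spread between them. The log2 fold change of 3.49 (SE 0.73), the largest of the members at week 4, had an adjusted p of 0.0580, and it ranged from 2.74 without PBOO replicate 3 (adjusted p = 0.1003) to 4.33 without PBOO replicate 1 (adjusted p = 0.0100). Ltbp2 passed the filter on low values only through the PBOO samples, so its tests are no independent support for a rise. At week 5 it was at 0.133, 0.561 and 0.146 FPKM in the normal samples and at 0.0853 and 2.00 in the PBOO samples. The 2 PBOO samples lay on either side of the normal range, and no change was detected (log2 0.89, SE 1.15, adjusted p = 0.588). This value rested on PBOO replicate 1, without which it was 2.64 (adjusted p = 0.0520). The Ltbp2 promoter (chr6:110257299-110257548, minus strand, RefSeq GRCr8) is printed because it held the most matches to CAGAC among the members, and it also holds a GC box. In it, capitals mark the same motifs as above.
Ltbp2: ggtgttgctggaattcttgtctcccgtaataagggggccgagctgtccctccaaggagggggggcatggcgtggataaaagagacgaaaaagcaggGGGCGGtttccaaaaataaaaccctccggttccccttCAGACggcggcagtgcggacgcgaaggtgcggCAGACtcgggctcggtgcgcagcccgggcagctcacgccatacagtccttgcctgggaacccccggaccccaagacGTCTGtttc
Besides Ltbp2, with 3 matches, CAGAC was found in the Ltbp1 promoter (1 match).

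The summed level of the 4 latency proteins was 92.7 ± 16.9 FPKM in normal and 171.7 ± 15.04 in PBOO bladders at week 4 (SD, n = 3 each). At week 5 it was 77.6 ± 12.96 in normal (n = 3) and 49.4 ± 7.01 in PBOO bladders (n = 2). Ltbp4 made up 52.5% ± 2.85 of this sum in normal and 35.0% ± 0.458 in PBOO bladders at week 5, and Ltbp3 34.8% ± 4.75 and 54.0% ± 0.423. The order of the pair was thus the opposite in the PBOO samples of week 5.

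Tgfbr1, the type I receptor kinase that phosphorylates Smad2 and Smad3, was at 11.2, 10.4 and 9.70 FPKM in the normal week 4 samples and at 11.8, 10.4 and 7.90 in the PBOO samples. The groups overlapped (log2 -0.07, SE 0.18, adjusted p = 0.787). The normal week 5 samples were at 4.55, 5.17 and 4.17 FPKM and the PBOO samples at 7.25 and 8.59. Both PBOO samples were higher, and Tgfbr1 rose 1.70-fold (log2 0.76, SE 0.17, adjusted p = 0.0235). The call was lost without normal replicate 1 (adjusted p = 0.102), normal replicate 3 (0.0891) or PBOO replicate 2 (0.0623).

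Tgfbr2, the type II receptor that binds the ligand first, was the highest of the members in the normal samples of both weeks. It was at 81.8, 84.4 and 79.5 FPKM in the normal week 4 samples and at 77.8, 81.2 and 57.3 in the PBOO samples. The groups overlapped (log2 -0.20, SE 0.15, adjusted p = 0.351), with PBOO replicate 3 below all others. At week 5 it was at 70.9, 71.8 and 73.8 FPKM in the normal samples and at 46.4 and 33.5 in the PBOO samples, and it fell 1.83-fold (log2 -0.87, SE 0.16, adjusted p = 0.0136). Leaving out normal replicate 1, 2 or 3 gave adjusted p = 0.0614, 0.0508 and 0.0580.

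Tgfbr3, the co-receptor betaglycan, which presents Tgfb2 to the type II receptor, was at 29.1, 43.0 and 41.9 FPKM in the normal week 4 samples and at 38.7, 32.3 and 19.0 in the PBOO samples. The groups overlapped (log2 -0.38, SE 0.28, adjusted p = 0.359). The normal week 5 samples were at 6.88, 9.92 and 7.41 FPKM and the PBOO samples at 3.12 and 1.42, with no overlap. Tgfbr3 fell 3.65-fold (log2 -1.87, SE 0.36, adjusted p = 0.0147). Without normal replicate 2 or 3 the adjusted p was 0.0545 and 0.0519.

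In normal week 4 bladders the levels ran from Tgfbr2 through Ltbp4, Tgfbr3, Tgfb1, Ltbp3, Tgfb3, Ltbp1, Tgfbr1 and Tgfb2 to Ltbp2. The ranges of Ltbp4 and Tgfbr3, of Tgfb3 and Ltbp1 and of Tgfbr1 and Tgfb2 overlapped, and the other neighbours in this order did not. In PBOO week 4 bladders Ltbp4 came first and its range overlapped that of Tgfbr2. The neighbours from Ltbp3 through Tgfbr3, Tgfb3, Tgfb1 and Ltbp1 to Tgfb2 overlapped in turn, and Tgfbr1 and Ltbp2 came last with overlapping ranges. In normal week 5 bladders the order was Tgfbr2, Ltbp4, Ltbp3, Tgfb1, Ltbp1, Tgfb3, Tgfbr3, Tgfbr1, Tgfb2 and Ltbp2, with overlap only from Ltbp1 to Tgfb3 and from Tgfb3 to Tgfbr3. In PBOO week 5 bladders Tgfb1 was the highest of the 10, followed by Tgfbr2, Ltbp3, Ltbp4, Tgfbr1 and Ltbp1 without overlap. Tgfbr3, Tgfb3, Ltbp2 and Tgfb2 came last there, each overlapping its neighbour.

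The effect of PBOO at week 5 was then compared with that at week 4 in 1 limma fit over the 11 samples. Every week 4 column, and no week 5 column, has a name that ends in Input. What this ending stands for is not given, and in this comparison it cannot be told apart from the week. The effect differed for 9 of the 10 members, against 40% of all 11296 genes tested (26.5% higher and 13.5% lower at week 5). The effect was higher at week 5 for Tgfb1 (log2 difference 1.56, SE 0.21, adjusted p = 0.000413) and Tgfbr1 (0.83, SE 0.25, adjusted p = 0.0252). It was lower at week 5 for the other 7, most of all for Tgfb3 (-4.02, SE 0.63, adjusted p = 0.00104) and Tgfb2 (-2.95, SE 0.56, adjusted p = 0.00291). The difference of Tgfb3 was -4.88 without PBOO week 5 replicate 1 and -3.16 without PBOO week 5 replicate 2. The differences of Ltbp1, Ltbp4 and Ltbp3 were -2.04 (SE 0.30, adjusted p = 0.000780), -2.03 (SE 0.39, adjusted p = 0.00313) and -0.90 (SE 0.20, adjusted p = 0.00572). Those of Tgfbr3 (-1.49, SE 0.49, adjusted p = 0.0344) and Tgfbr2 (-0.67, SE 0.23, adjusted p = 0.0392) were nearer the threshold, and that of Ltbp2 missed it (-2.60, SE 1.41, adjusted p = 0.164). The median difference was -1.76 over the members and 0.35 over all genes tested. Without PBOO week 5 replicate 2, the differences of Tgfbr1 (0.71), Tgfbr2 (-0.43) and Tgfbr3 (-0.95) were smaller, and that of Ltbp2 was larger (-4.35). That fit has a lone PBOO sample at week 5, and Ltbp2 passed the filter on low values only through PBOO samples. Leaving out other single samples ended the calls of these receptors, for Tgfbr1 with adjusted p up to 0.0589, for Tgfbr2 up to 0.0900 and for Tgfbr3 up to 0.0731. These upper values do not cover the fit without PBOO week 5 replicate 2, for which only effect sizes are given.

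**Figure D3:**
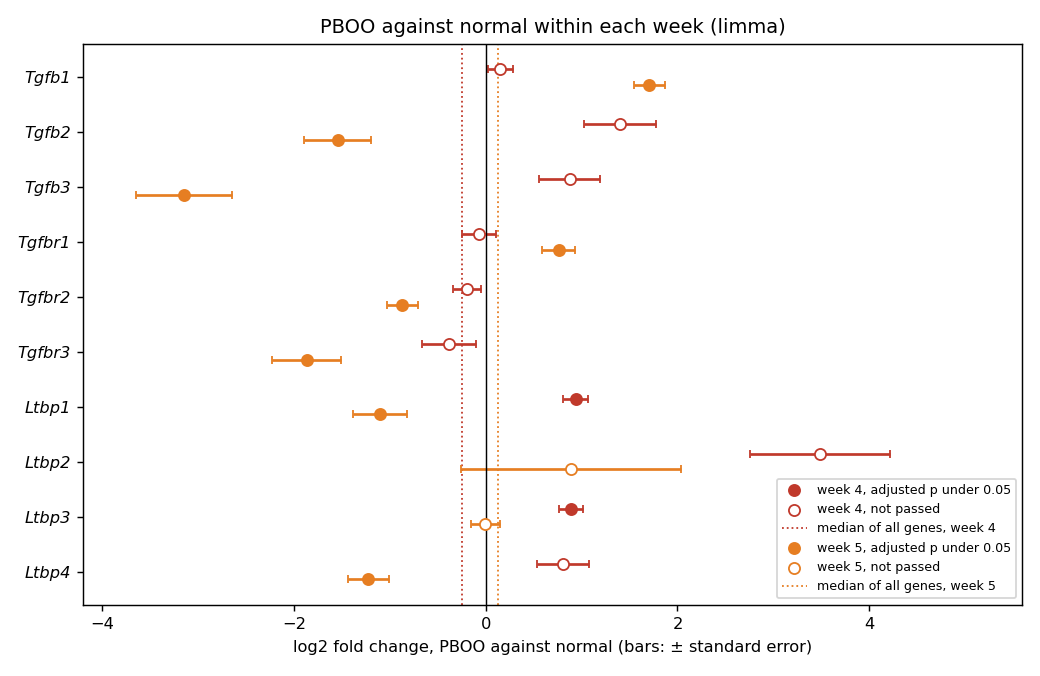
Log2 fold change of PBOO over normal bladders (x axis) with its SE for each of the 10 genes (y axis) at week 4 and week 5, on the log2(FPKM + 0.1) scale. Tgfb2, Tgfb3, Ltbp1 and Ltbp4 lie above 0 at week 4 and below 0 at week 5, and Tgfb1 lies at 0.15 and 1.71.

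Genes that carry or limit the signal inside the cell were described next. The counts of this list, of those that follow and of the cell type markers are to be read against the shares of all genes. At week 4, 0.512% of all genes passed, and 5.76% were higher and 26.2% lower unadjusted. At week 5, 15.5% passed as higher and 14.5% as lower, and 43.4% had an unadjusted p under 0.05. The median of all genes was -0.25 at week 4 and 0.12 at week 5. Of 15 transducers and brakes, none of the 13 tested passed at week 4 (2 higher and 5 lower at an unadjusted p under 0.05), with a median log2 fold change of -0.25. The values farthest from 0 were -0.84 for Smad6, an inhibitory Smad (adjusted p = 0.122), and 0.80 for Pmepa1, a membrane inhibitor of Smad signalling (adjusted p = 0.0624). At week 5, 5 of 15 rose and none fell (6 higher and 1 lower unadjusted), with a median of 0.19. The corepressors Tgif1 (log2 1.24, adjusted p = 0.00187) and Skil (1.20, adjusted p = 0.0382) and the inhibitory Smad7 (0.69, adjusted p = 0.0196) were the 3 with the largest rise.

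Of the accessory receptors and surface regulators, none of the 7 tested passed at week 4 (1 higher and 1 lower unadjusted, median -0.14). Bambi, a decoy receptor, was at -1.001 (adjusted p = 0.123) and Eng, the endothelial co-receptor endoglin, at 0.51 (adjusted p = 0.0934). At week 5 Eng rose (log2 1.14, adjusted p = 0.0251) and Lrrc32, which holds latent TGF-beta at the cell surface, fell (-2.05, adjusted p = 0.00211), and the median of the 7 tested was 0.0049.

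Of 16 genes that process or activate the latent complex, none of the 14 tested passed at week 4 (6 higher and none lower unadjusted, median 0.19). Thbs1, the activator thrombospondin 1, was at 2.39 (adjusted p = 0.128) and the integrin subunit Itgb1 at 1.15 (adjusted p = 0.0664). At week 5, 5 of 16 rose and 6 fell, with a median of -0.09. Among the rises were Plat, tissue plasminogen activator (log2 1.95, adjusted p = 0.00144), the integrin subunit Itgb8 (2.79, adjusted p = 0.00408) and the gelatinase Mmp9 (adjusted p = 0.0149). Itgb8 and Mmp9 passed the filter on low values only through the PBOO samples, where they were high, so their tests are no independent support for a rise. Mmp9 was at 1.83 and 36.7 FPKM in the PBOO samples of week 5, which differed widely, and was listed at 0 in 2 normal samples and at 0.021 in the other, so its fitted fold depends on the pseudocount and is not given. Among the falls were the integrin subunit Itgb3 (-3.37, adjusted p = 0.000521), the gelatinase Mmp2 (-2.44, adjusted p = 0.0132) and the proprotein convertase Pcsk6 (-2.74, adjusted p = 0.0100), which passed the filter only through its normal samples.

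Among matrix proteins that bind the latency proteins or the ligand, Fn1, which encodes fibronectin, was the 1 of 11 that rose at week 4 (log2 2.61, adjusted p = 0.0483), with 8 higher and 1 lower unadjusted and a median of 1.62. Of these 8, Fbn2 passed the filter on low values only through its PBOO samples (mean 1.55 FPKM, against 0.404 in normal). Its place in this count is therefore no independent support for a rise. At week 5, 8 of the 9 tested fell and none rose, with a median of -2.38. The elastic fibre gene Fbln5 (-3.64, adjusted p = 0.000289) and the small proteoglycans Dcn (-3.52, adjusted p = 0.00227) and Fmod (-3.32, adjusted p = 0.00292) fell most. Fbn1, the fibrillin to which latency proteins attach, was at 1.62 at week 4 (adjusted p = 0.0703) and fell by 2.38 at week 5 (adjusted p = 0.00835).

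Of 22 genes known to be induced by TGF-beta, 1 of the 20 tested passed at week 4, the immediate early gene Junb, which fell by 1.04 (adjusted p = 0.0478). The median was 0.61, with 5 higher and 2 lower unadjusted. At week 5, 6 of the 21 tested rose and 8 fell, with a median of -1.69. Sphk1, a sphingosine kinase (2.38, adjusted p = 0.00109), the secreted Angptl4 (1.88, adjusted p = 0.00210) and the transcription factor Bhlhe40 (1.56, adjusted p = 0.0138) had the largest rises. The smooth muscle genes Acta2 (-4.72, adjusted p = 0.00134) and Tagln (-4.42, adjusted p = 0.00117) and the collagen gene Col1a2 (-4.13, adjusted p = 0.000178) fell most. The lists share genes: Acta2 and Tagln are also among the smooth muscle markers below, and Col1a1, Col1a2 and, from the matrix list, Dcn among the fibroblast markers. Their falls are therefore not separate observations.

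**Figure D4:**
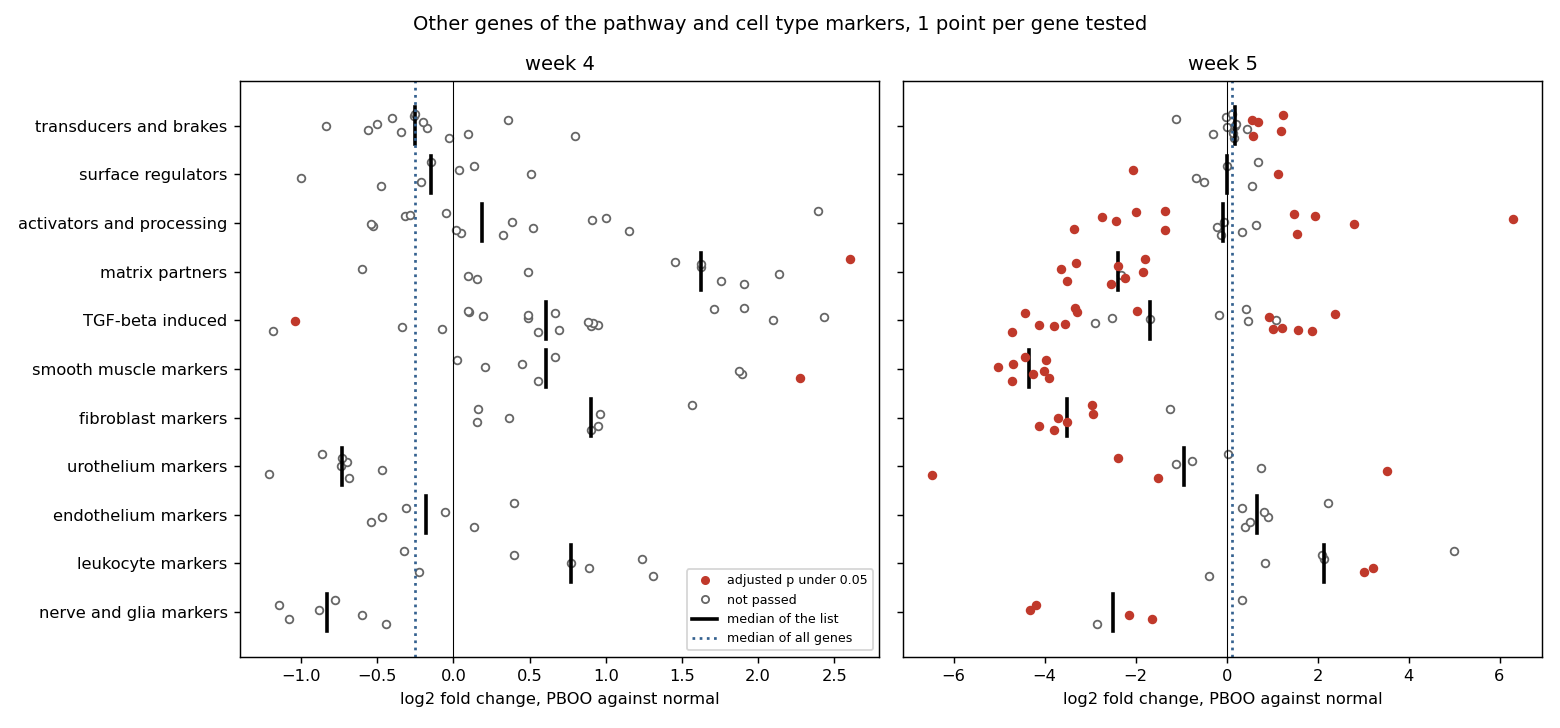
Log2 fold change of PBOO over normal bladders (x axis) at week 4 and week 5 for the genes of each pathway and cell type marker list (y axis), 1 point per gene tested (filled where it passed), with a bar for the median of the list and a dotted line for that of all genes. The median of the matrix partners is 1.62 at week 4 and -2.38 at week 5, and that of the transducers -0.25 and 0.19.

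The makeup of the tissue differed between the same groups, and in whole tissue fewer cells of a type and less RNA per cell cannot be told apart. At week 5, the summed FPKM of 8 smooth muscle markers was 24767 to 29124 in the normal samples and 994 to 1860 in the PBOO samples, and 8 of 8 fell. That of 7 fibroblast markers was 1046 to 1310 and 77.1 to 120, and 6 of 7 fell. The leukocyte markers summed to 10.003 to 27.9 in the normal and 91.3 to 258 in the PBOO samples, and 2 of 7 tested rose. This sum does not describe every marker. The log2 fold change was negative for 1 of the 7, Cd163 (-0.39), and S100a8 was at 2.74 and 145 FPKM in the 2 PBOO samples. The urothelial markers summed to 6613 to 8176 and 6338 to 7138, with 1 of 8 risen and 3 fallen. Their log2 fold changes ran from -6.47 for Krt20 to 3.52 for Krt5, which the urothelial sum does not show. Of the other lists at week 5, 4 of 6 nerve and glia markers, 1 of 2 mesothelial and 3 of 3 skeletal muscle markers tested fell (S100b and Sox10, of the nerve and glia list, passed the filter only through the normal samples), and none of 6 endothelial markers passed (1 higher unadjusted). At week 4, the smooth muscle sum was 25492 to 27555 in the normal samples and 50905, 61896 and 82146 in PBOO replicates 1 to 3, with 1 of 8 markers passing, and the urothelial sum was 5191 to 6484 and 3221 to 3809. The log2 fold changes of the smooth muscle markers ran from 0.021 for Smtn to 2.27 for Actg2 there, so their sum does not describe every marker. No marker of the other 7 lists passed at week 4 (unadjusted, 6 of 7 urothelial, 4 of 6 nerve and glia and 2 of 6 endothelial markers were lower, and 1 of 7 fibroblast and 2 of 4 skeletal muscle markers were higher). Normal week 4 replicate 1 had the lowest Tgfb3, Ltbp4 and Tgfbr3 of its group and the highest Tgfb2, Ltbp1 and Tgfbr1. Its fibroblast sum of 719 and leukocyte sum of 14.3 lay below those of the other week 4 samples. The part of these shifts in the changes of the ligands, latency proteins and receptors was not tested.

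As a description, genes whose log2 values followed those of each ligand most closely over the 11 samples were listed, after the mean of each week was subtracted, among 10684 genes. For Tgfb1 these were Smad1 (Pearson's r = 0.979), Orai2 (0.977) and Htatip2 (0.973). For Tgfb2 they were Dbn1 (0.977), Srpk3 (0.969) and Nacad (0.963), and for Tgfb3 Wfdc1 (0.981), Ehd2 (0.977) and Grb14 (0.972). Within the 10 members, Tgfbr2 and Tgfbr3 were the closest pair (0.961), and Tgfb3 and Tgfbr1 were the most opposed (-0.913). All points share the obstructed and normal groups, which shape these values.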

How the data were processed

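RNA-seq of 11 rat bladders was used. The authors describe TruSeq libraries, HiSeq4000 paired reads, trimming with SeqPrep and Sickle, HISAT2 v2.0.4, StringTie v1.3.1 and FPKM from featureCounts, and deposited 1 table of FPKM values. Annotation and strand are not given in the sources used here. The submitters' processing notes list mm10 as a build, whereas the symbols are of rat (15559 of 18507, and all 10 members, occur in RefSeq GRCr8), so no coordinates were taken from the build of the files. Groups and columns follow the sample labels. In the table, the week 5 controls carry the column names of adult samples.

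PBOO and normal samples were compared within each week by limma 3.58.1 (R 4.3.3, eBayes with a trend) on log2(FPKM + 0.1). Genes whose mean was under 0.5 FPKM were left out. The difference between weeks was fitted over all samples, leaving out genes listed at 0 throughout a week. DESeq2, the authors' test, needs counts and was not run. Genes passed at a Benjamini-Hochberg adjusted p under 0.05. Depth is unknown. On simulated data, 81.5% (week 4), 80.5% (week 5) and 71% (difference) of 200 genes changed by 2 on the log2 scale were recovered. The simulation drew independent normal noise, with 1 SD per gene for all groups, and changed only these 200 genes. The real data differ from this setting, so these percentages do not give the share of real changes found.

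The members, pathway lists, markers and motifs were chosen with earlier results of these data known. All members were named. From each list, up to 3 genes per direction with the largest change among those that passed were named, or, if none passed, up to 2 with a mean of at least 1 FPKM, plus Fbn1, chosen after its values were seen. Of the listed pathway genes, Ski, Skil, Cd109, Itgav and Ctgf (Ccn2) were at 0 in every week 4 sample and were not tested there. Alternatives changed the pseudocount, filter, scaling, trend, replicate block, shared fit, threshold and samples. Tables and figures were made with Python 3.11.15, pandas 2.3.3, numpy 2.4.6 and matplotlib 3.10.9.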

Additional observations from a re-analysis of the deposited data

Results flagged for a closer look

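For 9 of the 10 members, the effect of PBOO differed between week 5 and week 4 in limma's test of the difference (Benjamini-Hochberg adjusted p under 0.05). The week cannot be told apart from whatever the column name ending Input stands for, which all week 4 samples and no week 5 samples carry. The log2 difference, week 5 minus week 4, was 1.56 for Tgfb1, -2.95 for Tgfb2 and -4.02 for Tgfb3. It was 0.83 for Tgfbr1, -0.67 for Tgfbr2 and -1.49 for Tgfbr3. For the latency proteins it was -2.04 for Ltbp1, -0.90 for Ltbp3 and -2.03 for Ltbp4. The smooth muscle marker sum of the PBOO samples was above that of the normal samples at week 4 (50905 to 82146 against 25492 to 27555 FPKM) and below it at week 5 (994 to 1860 against 24767 to 29124 FPKM), and its part in these differences was not tested. At week 4 the log2 fold changes of the markers in this sum ran from 0.021 for Smtn to 2.27 for Actg2. With 2 or 3 samples per group, no single sample was tested for standing apart.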

How the results depend on the processing

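Depth is unknown from FPKM, and n is 2 or 3. At week 4, 58 genes passed, against 3621 unadjusted, 104 with a pseudocount of 1, 976 in 1 fit over 11 samples, and 0 without the filter, with median-ratio scaling or without a trend (3811, 2340 and 3404 unadjusted). Leaving out single samples gave 0 to 2126 (2126 without PBOO replicate 1, 20 without normal replicate 1, and 0 without each of the others, with 2317 to 2800 unadjusted). Of the members, 2 passed at week 4, against 6 unadjusted, 4 in 1 fit over 11 samples, 0 at 2-fold, without the filter, with median-ratio scaling, without a trend or with the replicate block, and 0 to 4 when single samples were left out. At week 5, 4095 genes passed, against 2637 at 2-fold and 1847 to 5793 with samples left out, and 8 members, against 3 to 8. With single samples left out, the difference between weeks gave 3664 to 4999 genes (4516 in all samples) and 6 to 9 members. As TPM it gave 3616 genes. Same-numbered samples had deviations correlated at 0.154, -0.0241 and 0.232 (week 4) and -0.000813 and 0.124 (week 5). Pairs of unlike number were at -0.21 to 0.0939 (week 4) and -0.161 to 0.161 (week 5). With 2 PBOO samples at week 5, their deviations mirror each other and cannot decide on a pairing. Whether the numbers pair the samples was not settled. With the replicate block, 63, 2523 and 3657 genes passed at week 4, at week 5 and for the difference, and 4 members at week 5, with Tgfb2, Tgfbr1, Tgfbr2 and Ltbp1 lost (adjusted p = 0.0659, 0.109, 0.0516 and 0.0687). Signs turned, without a call, for Tgfbr1 at week 4 (0.18 with median-ratio scaling, 0.023 as TPM, 0.090 without PBOO replicate 3, and -0.20 without PBOO replicate 1), Tgfbr2 at week 4 (0.051 with median-ratio scaling) and Ltbp3 at week 5 (0.046 and 0.018 without normal replicates 1 and 2, 0.15 without PBOO replicate 1, and -0.16 without PBOO replicate 2). Median-ratio scaling set the median of all genes to -0.0062, 0.021 and 0.065 (week 4, week 5, difference). The week 4 calls split 38 up and 20 down, and 58 and 10 as TPM. The week 5 calls split 2117 and 1978, 1634 and 2184 with median-ratio scaling, 1758 and 2051 as TPM, and 768 and 1079 without normal replicate 1. Those of the difference split 2990 and 1526, 1808 and 1954 with median-ratio scaling, and 1923 and 1693 as TPM. Tgfb1, Tgfb3 and Ltbp4 passed at week 5 under each of the 12 alternatives run, and the differences of the ligands, Ltbp1, Ltbp3 and Ltbp4 under each of 17. Tgfbr1, Tgfbr2 and Tgfbr3 passed for the difference in 10, 6 and 9 of 17. The causes were not tested.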
